A study of Mus musculus with 4 samples.

Results

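Hras and 8 genes of the same signaling switch were read across 4 mouse oral cancer cell lines. The genes were chosen by name: the Ras GTPases Hras, Nras, Rras, Rras2 and Mras, the exchange factor Sos1, and the GTPase-activating proteins (GAPs) Nf1, Rasa1 and Rasal2. Their Ensembl identifiers were matched to symbols with GENCODE M21, and all 9 were found among the 34721 entries of the expression table. All 9 also passed the filter of 1 FPKM in at least 1 line, which left 14165 genes.

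The lines came from oral tumors that had been raised in male C57BL/6 mice by painting the buccal mucosa with the carcinogen 7,12-dimethylbenzanthracene (DMBA) on a cotton swab. Each line was grown from 1 tumor. AOC3 came from the primary tumor of mouse 3 and AOC3-LN from its lymph node metastasis, and AOC11 and AOC11-LN were grown in the same way from mouse 11. The period of painting was not the same for both mice, all 4 lines had been passaged under the skin of C57BL/6 mice before use, and the labels give no treatment of the cultures. Each line gave 1 RNA library from cultured cells, and the values are FPKM, fragment numbers divided by the length of the transcript and the size of the library. Mouse of origin was therefore represented by 1 mouse on each side, and the primary and lymph node lines of that mouse stood in for replicates. The p-values below describe these lines only, since no second mouse or second culture of a line was measured.

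Ras GTPases are molecular switches at the inner face of the plasma membrane. They signal to the Raf and PI3-kinase pathways when bound to GTP and are silent when bound to GDP. Exchange factors such as Sos1, which act downstream of growth factor receptors, load them with GTP, and GAPs such as neurofibromin, the product of Nf1, speed up hydrolysis of that GTP. In mouse skin tumors started with DMBA, Hras is the Ras gene classically found mutated, most often in the codon for a glutamine that is needed for GTP hydrolysis.

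The coding sequence around that glutamine is shown for the 5 GTPases because it is a stretch in which Ras proteins can lose their hydrolysis. It also shows how far these genes, whose reads must be told apart, differ from each other. The sequences come from the GENCODE M21 transcripts on mm10, read along the coding strand, and the capitals mark the glutamine codon.
Hras: gacacagcaggtCAAgaagagtatagt
Nras: gacacagctggaCAAgaggagtacagt
Rras: gacactgcggggCAAgaggaatttggt
Rras2: gatacagccggaCAAgaggagtttgga
Mras: gacacagccgggCAGgaggagttcagt
The Hras stretch lies in a coding exon at chr7:141192537-141192563 on the minus strand, and its glutamine is codon 61. Nras carries the glutamine at the same codon 61, at chr3:103060258-103060284 on the plus strand, whereas it is codon 87 in Rras, 72 in Rras2 and 71 in Mras. Nras differed from Hras at 4 of these 27 bases, Mras at 6, and Rras and Rras2 at 7 each. The study's exome variant list gives a missense Hras change inside this codon for AOC11 and AOC11-LN, and a missense Nf1 change for the same lines. FPKM values do not separate the alleles of a gene, so the levels below are the sum of all alleles.

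On mm10, Hras lies at chr7:141189105-141194005, Nras at chr3:103058285-103067914, Rras at chr7:45017961-45021647, Rras2 at chr7:114046782-114117781 and Mras at chr9:99385420-99437381. Sos1 lies at chr17:80393751-80480453, Nf1 at chr11:79339693-79581612, Rasa1 at chr13:85214780-85289130 and Rasal2 at chr1:157135182-157412595.

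Among the Ras GTPases, Hras reached 46.8 FPKM in the primary line and 64.3 in the lymph node line of mouse 3, and 77.8 and 85.4 in those of mouse 11, with a mean of 68.6 ± 17.0 (SD, n = 4 lines). Both AOC11 lines were above both AOC3 lines, and the highest line was 1.83-fold above the lowest. In these bulk libraries, a lower level in every cell and fewer cells that express a gene cannot be told apart. Nras, the closest relative of Hras in this set, stood at 54.2, 47.9, 91.4 and 83.1 FPKM in AOC3, AOC3-LN, AOC11 and AOC11-LN (the order of all lists of 4 values that follow), with a mean of 69.1 ± 21.3 (SD, n = 4 lines). It too was higher in both AOC11 lines than in either AOC3 line.

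Rras encodes R-Ras, a GTPase known for its part in integrin-mediated adhesion. Its levels were 66.8, 49.1, 61.0 and 127 FPKM. AOC11-LN stood apart, and the other 3 lines overlapped between the mice, so that Rras had the widest range of the 9 genes at 2.58-fold. Rras2, which encodes TC21, a transforming relative of R-Ras, was measured at 92.4, 91.2, 80.0 and 65.7 FPKM. Here the order was turned around, with both AOC3 lines above both AOC11 lines. Mras, whose product recruits the Shoc2 phosphatase complex to Raf, was the least abundant of the 5 GTPases with 12.9, 8.04, 16.3 and 17.9 FPKM. Both AOC11 lines were again the higher ones.

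Sos1, the exchange factor, was at 10.4, 10.2, 9.57 and 4.79 FPKM. AOC11-LN was the low line, and the other 3 lay within a narrow band. Of the GAPs, Nf1 was measured at 6.99, 7.76, 7.42 and 5.17 FPKM, and AOC11-LN was again the lowest while AOC11 lay between the AOC3 lines. Rasa1, which encodes p120 RasGAP, a GAP recruited to activated receptor tyrosine kinases, had 26.3, 29.7, 26.7 and 31.3 FPKM. It was the most even of the 9 genes, with 1.19-fold between its highest and lowest line. Rasal2, another GAP for Ras, was low in every line with 2.85, 3.23, 4.15 and 2.95 FPKM, and its highest line was AOC11.

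**Figure D1:**
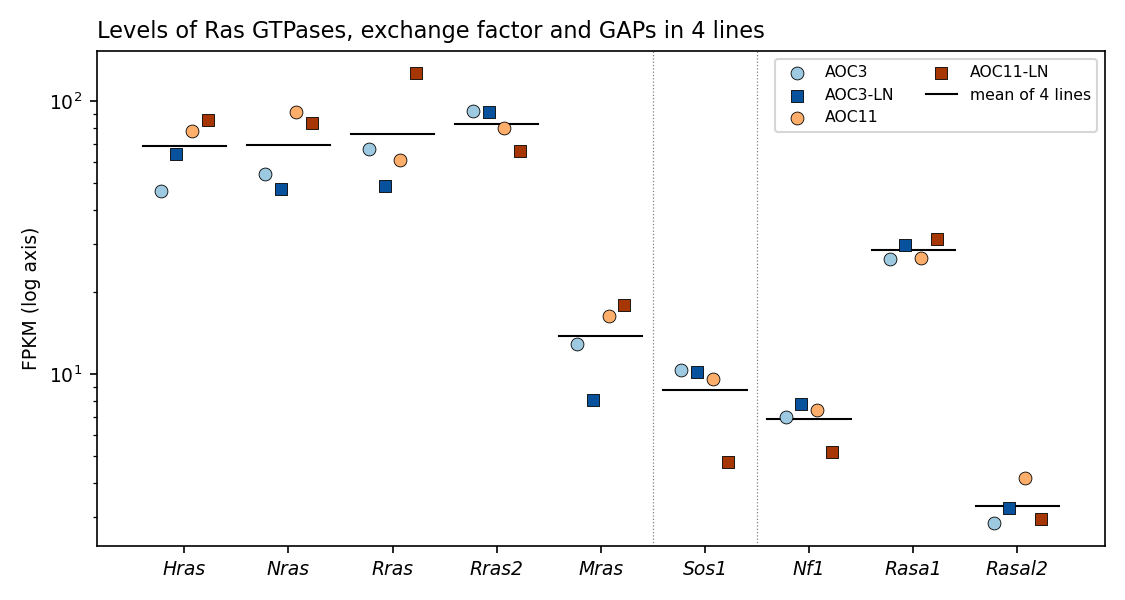
FPKM of the 9 genes (log axis) in AOC3, AOC3-LN, AOC11 and AOC11-LN, each point 1 library and each bar the mean of 4 lines; dotted lines part the GTPases, Sos1 and the GAPs. Hras, Nras and Mras are higher in both AOC11 lines, Rras2 is lower in them, and Rras (127 FPKM) and Sos1 (4.79 FPKM) depart most from the other lines in AOC11-LN.

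By mean FPKM, a scale that is per length of transcript, the order was Rras2, Rras, Nras, Hras, Rasa1, Mras, Sos1, Nf1 and Rasal2. The first 4 did not differ beyond their spread: the mean log2 ratio of neighbours in this order was 0.20 ± 0.80 for Rras2 over Rras, 0.09 ± 0.51 for Rras over Nras and -0.01 ± 0.31 for Nras over Hras (SD, n = 4 lines). Hras exceeded Rasa1 in 4 of 4 lines by a log2 ratio of 1.23 ± 0.33, Rasa1 exceeded Mras in 4 of 4 by 1.11 ± 0.53, and Nf1 exceeded Rasal2 in 4 of 4 by 1.05 ± 0.26. Mras over Sos1 (0.66 ± 0.95) lay within the spread, and Sos1 over Nf1 (0.31 ± 0.29, higher in 3 of 4 lines) barely passed it. Hras lay at the 88.5th percentile of mean FPKM among the tested genes and Rasal2 at the 25.2th.

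Summed over the 5 GTPases, the lines of mouse 3 held 273 FPKM (primary) and 260 FPKM (lymph node), and those of mouse 11 held 327 and 379 FPKM. The gene that led this sum was not the same in each line. Rras2 led in AOC3 (33.8% of the sum) and AOC3-LN (35.0%), Nras led in AOC11 (28.0%), and Rras led in AOC11-LN (33.4%). Hras made up 17.1%, 24.7%, 23.8% and 22.6%, so that its share was lowest in AOC3 and alike in the other 3 lines. The sum of the 3 GAPs was more even, between 36.2 FPKM (AOC3) and 40.7 FPKM (AOC3-LN), and most of it was Rasa1.

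**Figure D2:**
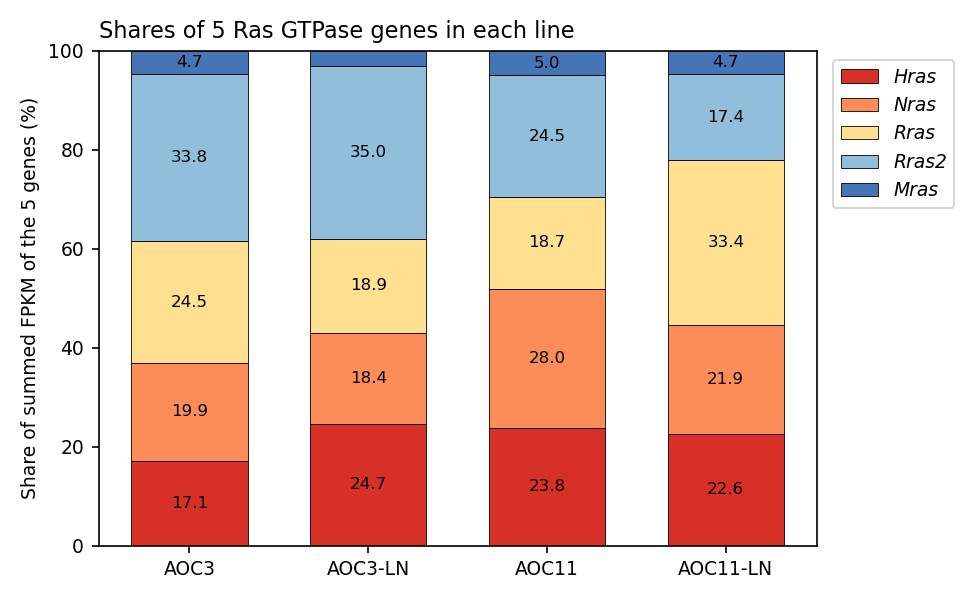
Share (%) of each of 5 Ras GTPase genes in their summed FPKM, 1 bar per line. Rras2 is the largest part in the AOC3 lines (33.8% and 35.0%), Nras in AOC11 (28.0%) and Rras in AOC11-LN (33.4%).

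The libraries were of like depth. Steps in the low FPKM values of single-transcript genes put the 4 libraries at 33600000, 28400000, 33800000 and 32400000 fragments, with between 64.0% and 68.3% of the values within 0.1 of a whole multiple of the step, so that counts were not recovered. At these depths, and with all fragments placed on the shortest annotated coding transcript, Hras rested on 1434 to 2527 fragments and Rasal2 in AOC3-LN, the fewest of any gene and line here, on 44.0, a counting error of 15.1%. For Rasal2 that transcript has 641 bases and the longest has 10047, and a longer transcript would give more fragments at the same FPKM. The order of the genes by fragments depends on this choice too. Counting error does not cover differences between cultures. The cells carried epithelial markers in every line, with Epcam between 416 and 518 FPKM, Cdh1 between 144 and 183, and Krt8 between 815 and 1078. The filter, which asks for 1 FPKM in only 1 line, was passed by 10 of 10 markers of the epithelial list. Of these, Trp63 passed through the AOC3 lines (1.69 and 2.10 FPKM) and was at 0.0848 and 0.841 FPKM in AOC11 and AOC11-LN. The 10 fibroblast markers summed to 0.31, 0.33, 1.30 and 4.76 FPKM, of which 3.54 FPKM in AOC11-LN was Postn, a matrix protein gene. The 8 macrophage markers summed to between 9.29 and 27.0 FPKM, with Adgre1, C1qa and C1qb listed at 0 in all lines. The 7 T cell markers summed to at most 2.92 FPKM with Cd3e, Cd4 and Cd8a at 0, and the 6 endothelial markers to at most 0.51 FPKM.

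The first comparison set the AOC3 lines against the AOC11 lines, that is, tumors of different mice. None of the 9 genes passed limma with Benjamini-Hochberg adjustment at 0.05, against 29 of 14165 genes (0.205%) in the same fit. None differed by more than 1 on the log2 scale of the normalized FPKM + 1, against 1573 genes (11.1%). An unadjusted limma p under 0.05 was reached by 1 of the 9 genes, Nras, and by 18.7% of all genes. The median of the 9 log2 differences, AOC3 minus AOC11, was -0.05 beside 0.01 for all genes tested, and the median of their sizes was 0.51 beside 0.33.

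Hras was 1.47-fold higher in mean FPKM in the AOC11 lines, a log2 difference of -0.51 ± 0.20 (limma SE) with an adjusted p of 0.278. The difference was -0.66 between the primary lines and -0.35 between the lymph node lines. Nras was 1.71-fold higher in the AOC11 lines, with a log2 difference of -0.70 ± 0.17 (limma unadjusted p = 0.00983, adjusted p = 0.158). Of the 9 genes it differed least between the sites, with -0.69 in the primary and -0.72 in the lymph node lines. Mras gave -0.61 ± 0.26 (limma adjusted p = 0.289), of which the lymph node lines held more (-0.96) than the primary lines (-0.27).

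Rras2 was 1.26-fold higher in AOC3 and AOC3-LN, a log2 difference of 0.38 ± 0.18 (limma adjusted p = 0.325). Sos1 was 1.43-fold higher there, with 0.64 ± 0.36 (limma adjusted p = 0.407), but the primary lines differed by 0.13 only and the lymph node lines by 1.14. Rras pointed to AOC11 with -0.53 ± 0.38 (limma adjusted p = 0.492) while its primary lines differed by 0.20 in the other direction. The 3 GAPs gave differences of 0.30 ± 0.28 for Nf1, 0.02 ± 0.19 for Rasa1 and -0.05 ± 0.30 for Rasal2, with Nf1 a little above its SE and the other 2 below theirs, and limma adjusted p between 0.587 and 0.968. The primary lines of Nf1 pointed the other way (-0.08) and its lymph node lines gave 0.68, and the difference was 0.03 without AOC11-LN and 0.56 without AOC11. The direction for Rasa1 turned without quantile normalization (-0.05), and those of Rasa1 and Rasal2 turned when a line was left out.

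The FPKM values of both mice did not overlap for 3 of 9 genes with the AOC11 lines higher (Hras, Nras and Mras), where 30.5% of all genes tested had this pattern, and for 2 of 9 with the AOC3 lines higher (Rras2 and Sos1), where 22.5% did. These counts were near the background. Without the AOC11 primary line, the log2 differences of Rras (-1.06) and Sos1 (1.10) passed 1 in size, since AOC11-LN alone then stood for mouse 11, and without AOC11-LN they were -0.03 and 0.16. Among the markers, Krt5, a basal keratin, was 499 and 275 FPKM in the AOC3 lines and 4.99 and 17.0 in the AOC11 lines. Krt14, also a basal keratin, ran the other way with 166 and 150 FPKM against 257 and 259, as did the junction gene Cldn4 with 225 and 235 FPKM against 450 and 365. Csf1r, a growth factor receptor gene of the macrophage list, was 0.995 and 0.435 FPKM in the AOC3 lines and 20.8 and 6.01 in the AOC11 lines, while Cd68, the other macrophage marker that passed the filter, was higher in the AOC3 lines (13.0 and 8.79 against 6.15 and 4.45 FPKM). Their part in the differences of the 9 genes was not tested.

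**Figure D3:**
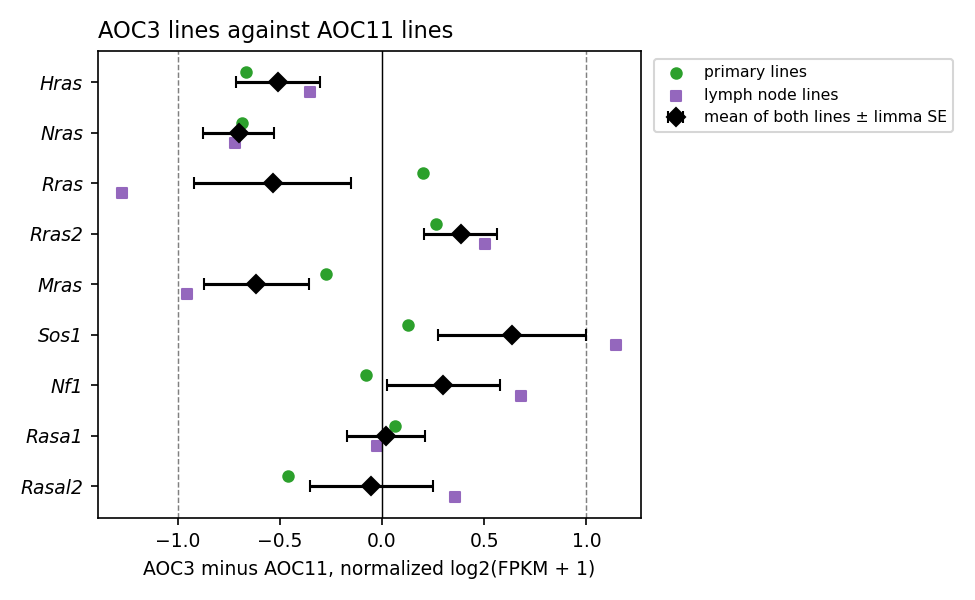
Difference AOC3 minus AOC11 in normalized log2(FPKM + 1) for each gene: diamonds are means over both sites with the limma SE, circles the primary lines alone and squares the lymph node lines alone; dashed lines mark -1 and 1. Nras gives nearly the same value at both sites (-0.69 and -0.72), whereas Rras (0.20 and -1.27) and Sos1 (0.13 and 1.14) do not.

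The second comparison set the lymph node line against the primary line of the same mouse. With the mouse as a block, limma called 0 of the 9 genes and 2 of 14165 (0.0141%), and an unadjusted p under 0.05 was reached by 0 of the 9 and by 405 genes (2.86%). All 9 adjusted p-values were 0.999. Within a mouse there was 1 library per site, so the differences that follow have no replicate check.

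In mouse 3, none of the 9 genes moved by more than 1 on the log2 scale, against 783 genes (5.53%). Mras shifted by -0.53, Rras by -0.45 and Hras by 0.41, or by -0.53, -0.56 and 0.40 after the matching on transcript length and GC described below for mouse 11. Hras was thus 1.37-fold higher in AOC3-LN than in AOC3. The remaining 6 genes lay between -0.20 (Nras) and 0.28 (Rasal2).

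In mouse 11, Rras was 2.08-fold higher in AOC11-LN than in AOC11, a log2 shift of 1.02, and was the only 1 of the 9 genes above 1, as were 704 of all genes (4.97%). No gene of the set was below -1, as were 445 of all genes (3.14%), though Sos1 came near it with -0.95, from 9.57 to 4.79 FPKM. Rasal2 (-0.54) and Nf1 (-0.52) were also lower, which placed Sos1 and these 2 GAPs on the same side. Hras shifted by 0.10, Mras by 0.15, Rasa1 by 0.26, Nras by -0.17 and Rras2 by -0.28. The median of the 9 shifts was -0.17 in mouse 11 and 0.07 in mouse 3, beside -0.02 and 0.02 for all genes.

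Transcript length moved with the shifts of AOC11-LN. Among 11380 protein-coding genes, the median shift was 0.15 in the shortest and -0.21 in the longest of 5 equal groups by transcript length, while in AOC3-LN these medians were 0.04 and -0.01. By GC content of the transcript, the median in AOC11-LN went from -0.20 at the lowest GC to 0.18 at the highest, by the same division. Rras has a longest transcript of 995 bases with 58.1% GC, whereas those of Sos1, Rasal2 and Nf1 have 8436, 10047 and 11917 bases. When the median of 500 genes nearest in length and GC was taken off, Rras was left with 0.72, Sos1 with -0.60, Nf1 with -0.24 and Rasal2 with -0.26, each in its earlier direction and smaller. Hras turned from 0.10 to -0.036 and Nras from -0.17 to 0.021, while Rasa1 grew from 0.26 to 0.48. After matching, none of the 9 genes passed 1. This matching was chosen after the data had been seen. The summed fibroblast markers were also highest in AOC11-LN (4.76 FPKM), and their part in these shifts was not tested.

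The shifts of both mice had opposite signs for 5 of the 9 genes (Rras, Mras, Sos1, Nf1 and Rasal2), as they did for 51.9% of all genes. The unmatched shifts of both mice were negative for Nras and Rras2 and positive for Hras and Rasa1, but after matching on length and GC those of Hras (-0.036) and Nras (0.021) in mouse 11 turned against those in mouse 3 (0.40 and -0.16). The shift of Sos1 in mouse 3 was small (0.07) and turned to -0.03 without quantile normalization, and that of Rras2 (-0.04) turned to 0.06 under median scaling.

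**Figure D4:**
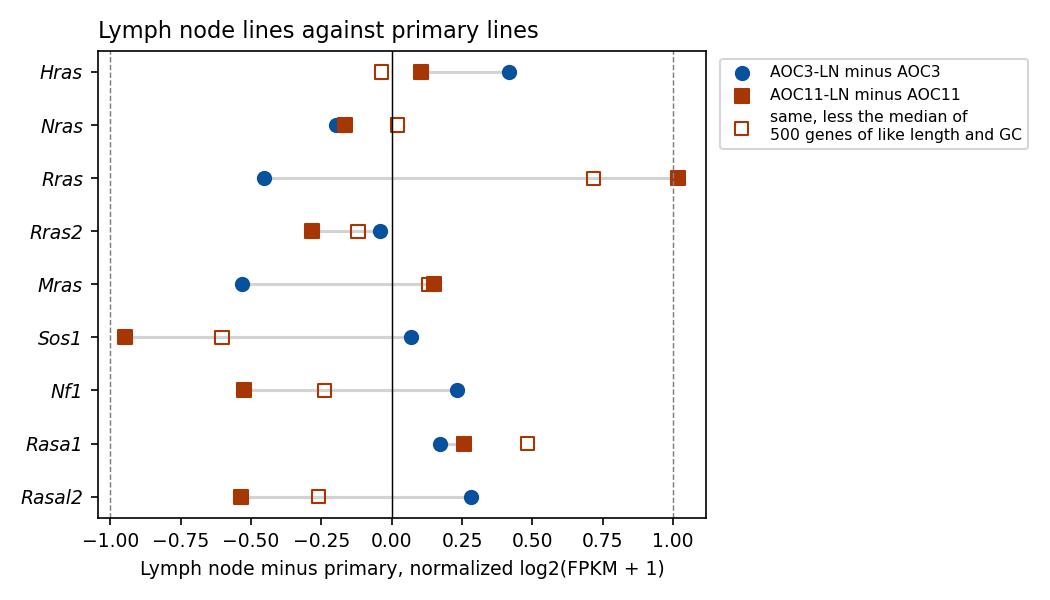
Shift from primary to lymph node line in normalized log2(FPKM + 1): circles AOC3-LN minus AOC3, filled squares AOC11-LN minus AOC11, open squares the latter less the median shift of 500 genes of like transcript length and GC; dashed lines mark -1 and 1. Rras (1.02) and Sos1 (-0.95) lie farthest from 0 in mouse 11 and move to 0.72 and -0.60 after matching.

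The genes around each member were read as well, and those around Hras, Nras, Rras, Rras2, Sos1 and Mras are given here. Within 1 Mb of Hras, 41 other genes were tested, and 32 of them were higher in AOC11-LN than in AOC11, with a median shift of 0.34 and 6 above 1. Hras itself, at 0.10, shifted less than most of them. In mouse 3 the median of these neighbours was 0.06, and the Hras shift of 0.41 was above 95.1% of them. In the comparison of AOC3 with AOC11 lines, the neighbours had a median of -0.15, and 22.0% of them lay below Hras. Around Nras on chromosome 3, 15 of 19 neighbours were higher in the AOC11 lines, with a median difference of -0.38. The difference of Nras thus had the direction of most genes of its region, and 21.1% of them lay below it. Around Rras2, 5 of 7 neighbours were higher in the AOC11 lines, with a median difference of -0.41. Rras2 itself, at 0.38, went against most genes of its region.

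Around Rras, 66 genes were tested and 57 of them were higher in AOC11-LN, with a median shift of 0.42 and 11 above 1. Rras, at 1.02, was above 83.3% of these neighbours. Over all genes tested the median shift was -0.02, and 4.97% were above 1. The upward shift of Rras in mouse 11 was therefore shared in direction by most genes of its region. The shifts of the neighbours of Rras and Hras were not matched on transcript length and GC. A part of the region and a part of length and GC can therefore not be told apart here. Around Sos1 on chromosome 17, the 11 neighbours had a median of -0.29 in AOC11-LN and none was as low as Sos1. Around Mras on chromosome 9, none of 13 neighbours was as low as Mras in AOC3-LN or in the comparison of AOC3 with AOC11 lines. Copy number was not analysed here.

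**Figure D5:**
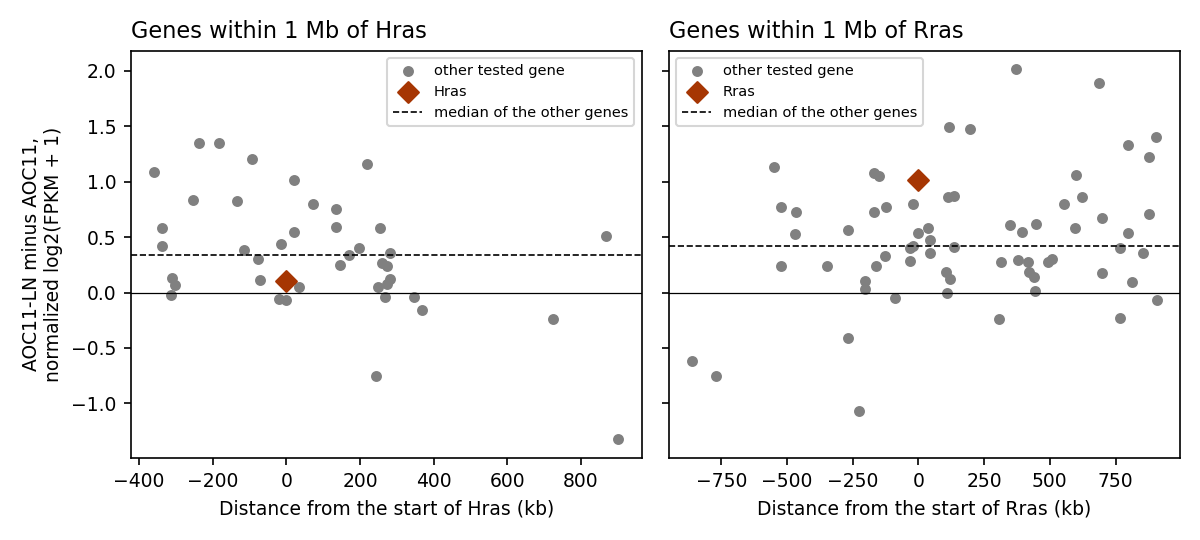
Shift AOC11-LN minus AOC11 in normalized log2(FPKM + 1) of the tested genes within 1 Mb of Hras (left) and Rras (right), against distance from the start of that gene in kb. Dashed lines are the medians of the other genes, 0.34 around Hras and 0.42 around Rras, and the diamonds are Hras (0.10) and Rras (1.02).

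Genes that share sequence with a member on the genome can share its reads. The start of Lrrc56 lies 0.152 kb from that of Hras on the opposite strand, and it was at 2.02, 1.55, 0.753 and 1.06 FPKM, far below Hras and in another order. Rasa1 overlaps Ccnh on the opposite strand, which was at 22.9, 21.8, 17.4 and 22.0 FPKM. Rasal2 overlaps the pseudogene 2810025M15Rik on the opposite strand, which was at 33.1, 31.4, 42.1 and 44.3 FPKM, well above Rasal2 itself. The library kit kept the strand, but the methods name default parameters for TopHat2 and Cufflinks, whose default library type does not use strand. Reads from a gene and its partner on the other strand can then not be told apart where they overlap, so the levels of Rasal2 and Rasa1 are less certain than those of Hras, Nras, Rras and Mras, which overlap no other gene.

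The genes whose normalized log2 pattern over the 4 lines was nearest to that of Hras, after centring each gene on its mean, were Tlnrd1, Faap100, Ovol2, Zfp296 and Cit, at distances of 0.0626 to 0.0991. With 4 lines many genes come close, and 210 of 11380 protein-coding genes lay within 0.25 of Hras. For Rras, the gene of the widest range, the nearest were Slc35d2, Dpysl2, P3h3, Spa17 and Prss16, and 45 genes lay within 0.25.

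The other genes of the pathway were read as lists, and their shifts in AOC11-LN were not matched on transcript length and GC. Of 20 other Ras-like GTPases, 12 passed the filter and none was called by limma between the mice, beside 0.205% of all genes. Beside 11.1% of all genes, 1 of the 12 passed a log2 difference of 1 between the mice. This was Rit1, a Ras relative without a lipid-anchored tail, at 7.86, 5.70, 20.9 and 24.8 FPKM with a difference of -1.56. Of the 12 genes, 11 had negative differences, with a median of -0.24 beside 0.01 for all genes. Ralb, a Ral GTPase that acts downstream of Ras, gave -0.81 (26.1, 17.5, 42.2 and 38.4 FPKM). In AOC11-LN, 1 of the 12 genes, Rap2a, was below -1, with a shift of -1.02, beside 3.14% of all genes.

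Of 7 other exchange factors for Ras, only Sos2 passed the filter, with 12.4, 14.2, 18.4 and 10.8 FPKM. Like Sos1 it was lower in AOC11-LN than in AOC11, with an unmatched shift of -0.72. Of 7 other GAPs, 5 passed the filter and none passed a log2 difference of 1 in either comparison. Among all genes, 11.1% did between the mice, 5.53% in AOC3-LN and 8.11% in AOC11-LN. Rasa4 was at 18.8, 14.9, 26.0 and 34.3 FPKM, a difference of -0.71 between the mice, and Rasa3 at 18.4, 24.0, 17.5 and 15.9 FPKM, a difference of 0.40.

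All 10 adaptors that link receptors to Ras passed the filter. Beside 11.1% of all genes, 1 of these 10 passed a log2 difference of 1 between the mice. This was Gab1, a docking protein of growth factor receptors, at 1.96, 1.33, 6.46 and 5.54 FPKM with a difference of -1.34 (limma adjusted p = 0.118). Irs2, an insulin receptor substrate, had a shift of -1.29 in AOC3-LN, from 8.09 to 2.42 FPKM. It was the only 1 of the 10 past 1 in size there, beside 5.53% of all genes. Ptpn11, the phosphatase Shp2 that relays receptor signals to Ras, was at 41.7, 48.0, 62.5 and 37.6 FPKM.

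Of 23 Ras effectors and members of the kinase cascade, 19 passed the filter. None of these differed by more than 1 between the mice, against 11.1% of all genes. Mapk3, a kinase at the end of this cascade, was at 47.5, 43.6, 72.4 and 101 FPKM, a difference of -0.83 (limma adjusted p = 0.170). Ksr1, a scaffold of this cascade, was above 1 in AOC3-LN, with a shift of 1.66, from 1.16 to 5.20 FPKM. It was the only 1 of the 19 past 1 in size there, beside 5.53% of all genes. The 4 genes of the Shoc2 phosphatase complex, the partner of Mras, were each higher in the AOC11 lines by small amounts, with a median difference of -0.20. None of the 20 genes of Ras lipidation, trafficking and turnover passed 1 in either comparison. Among all genes, 11.1% did between the mice, 5.53% in AOC3-LN and 8.11% in AOC11-LN.

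Of 10 genes that the MAPK pathway is known to induce, 8 had positive differences, higher in the AOC3 lines, with a median of 0.54 beside 0.01 for all genes. Between the mice limma called none of them, beside 0.205% of all genes, and 1 passed a log2 difference of 1, beside 11.1%. Epha2, an ephrin receptor gene, was at 183, 251, 118 and 72.3 FPKM, a difference of 1.23, and Dusp4, a phosphatase of MAP kinases, at 80.4, 76.1, 53.1 and 36.4 FPKM, a difference of 0.88. Epha2 and Dusp4 were higher in both AOC3 lines, as were Rras2 and Sos1, whereas Hras, Nras and Mras were higher in both AOC11 lines. The other 2 of the 10 genes had negative differences. A relation of these genes to the levels of the Ras genes was not tested. In AOC3-LN the median shift of the 10 genes was 0.36, and 1 of them, Spry4, passed 1, beside 5.53% of all genes. In AOC11-LN their unmatched median shift was -0.29. Earlier results on these data were known when the list was written, so its direction is no independent evidence.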

How the data were processed

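The 4 cell lines were sequenced with 1 mRNA library each (paired-end, a stranded kit). Per the paper's methods and the submitters' processing notes, the authors trimmed reads with Trim Galore, mapped them to mm10 with TopHat2 and estimated FPKM with Cufflinks on GENCODE M21. The deposited values are FPKM, neither log-transformed nor quantile-normalized. FPKM depends on the transcript model and length that Cufflinks assigns. No read counts were used here, and no column was left unmapped.

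FPKM + 1 was log2-transformed and quantile-normalized, and the 14165 entries that reached 1 FPKM in any line were kept. A log2 difference understates the change of low genes on this scale. limma 3.58.1 in R 4.3.3 (lmFit, eBayes with trend) was fitted over all of them with Benjamini-Hochberg adjustment, without a block for the mouse comparison and with the mouse as block for the site comparison, because both lines of a mouse come from the same animal. Differences past 1 in size on the log2 scale were also counted. The script was tested on simulated data. Alternatives were a pseudocount of 0.1, no quantile normalization, median scaling, no filter, a filter of 5 FPKM, protein-coding genes only, site as a block, no mouse block, and each line left out. Gene lists were written by hand. Each list names at most the 3 genes with the largest differences by mouse and by site. The members and lists were chosen with earlier results of these data known. Exome data were used for no value.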

Additional observations from a re-analysis of the deposited data

Results flagged for a closer look

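The lymph node shift differed in sign between the mice for 5 of the 9 genes, with 1 library on each side, so the difference between the mice was not tested. The shift in AOC11-LN minus that in AOC3-LN was 1.47 for Rras, 0.68 for Mras, -1.02 for Sos1, -0.76 for Nf1 and -0.82 for Rasal2 on the log2 scale. Opposite signs were as frequent among all genes (51.9%). For Sos1 the sign in mouse 3 turned without quantile normalization (-0.03).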

How the results depend on the processing

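In every alternative run, limma called 0 of the 9 genes in both comparisons, the fit with site as a block and the fit without the mouse block included, while the number called among all genes between the mice ranged from 0 (no filter, and each line left out) through 29 to 50 (filter of 5 FPKM) and 256 (protein-coding genes only). Pairing rests on the mouse. With a replicate block for site, 0 of the 9 genes were called between the mice. When a line was left out, the count of genes past a log2 difference of 1 ranged from 0 to 2. For AOC11-LN that count was 2 with a pseudocount of 0.1 (Rras and Sos1), and 0 after matching on transcript length, or on length and GC, which was added after the data had been seen. The difference of Rasa1 between the mice turned to -0.046 without quantile normalization, and with a line left out it ranged from -0.11 (without AOC11) to 0.15 (without AOC11-LN). That of Rasal2 then ranged from -0.33 (without AOC11-LN) to 0.21 (without AOC11). Among all genes, a pseudocount of 0.1 raised the number past a log2 difference of 1 from 1573 to 2627 between the mice. In AOC3-LN it rose from 783 to 1443 and in AOC11-LN from 1149 to 2074. With the smaller pseudocount, a log2 difference understates the change of low genes less. Protein-coding genes only, a subset of 11380 with the same normalized values, gave 473 in AOC3-LN and 689 in AOC11-LN. With a filter of 5 FPKM, Rasal2 has no value.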
